A study of Arabidopsis thaliana with 18 samples.

Results

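The 10 genes described here are outputs of the circadian clock in *Arabidopsis thaliana*, chosen by name: the glycine-rich RNA-binding protein genes GRP7 (AT2G21660) and GRP8 (AT4G39260), the CYCLING DOF FACTOR genes CDF1 (AT5G62430), CDF2 (AT5G39660), CDF3 (AT3G47500) and CDF5 (AT1G69570), the photoreceptor gene FKF1 (AT1G68050), and CONSTANS (CO, AT5G15840) with its relatives COL1 (AT5G15850) and COL2 (AT3G02380). They are 10 of the 27587 genes of the table, and all of their 17 transcripts were summed to genes. The genes were chosen with earlier results of these data known. RNA was measured in whole seeds produced at 23 °C by Col-0, the wild type, and by *ros1-4*, a homozygous T-DNA insertion line of the DNA demethylase gene ROS1 in the Col-0 background. Each genotype was sampled as dried mature seeds, at germination stage II (the seed coat has ruptured and a radicle point is visible) and at germination stage IV (the radicle has emerged further), after imbibition in water in the light. There were 3 biological replicates of 100 seeds in each of the 6 groups, so that 18 libraries were compared. The mutant is a single insertion line and each replicate pools many seeds and all seed tissues, so that fewer cells of a type and less RNA per cell cannot be told apart.

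Clock outputs carry the time kept by the central oscillator into physiology. The morning factors CCA1 and LHY repress evening genes through a short promoter sequence called the evening element, and evening genes repress the morning factors in turn. GRP7 and GRP8 are RNA-binding proteins of the evening that regulate each other's splicing in a slave oscillator and take part in cold and defence responses. The CDF proteins repress transcription of CO and of the florigen gene FT in the morning, FKF1 with GIGANTEA (GI) removes them in the light of the afternoon, and CO then activates FT in long days. COL1 and COL2 are close relatives of CO that are expressed around dawn.

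Total counts lay between 18737837 and 20787603 per library. ROS1 itself went against the labels in germinating seeds: it had 123.8 to 144.6 CPM, which are counts scaled to a common library size, in mature seeds labelled *ros1-4* against 197.5 to 205.9 in Col-0, but 43.7 to 46.1 at stage II against 10.2 to 11.4, and 42.8 to 49.7 at stage IV against 10.3 to 12.6. For this reason the mutant is named throughout as the libraries labelled *ros1-4*. The counts cover whole transcripts and do not show from which side of the insertion the reads came. For the seed tissue, the 6 seed maturation markers together took 16.0% to 16.3% of the counts in mature Col-0 seeds and 16.4% to 18.7% in those labelled *ros1-4*. Of 4 markers of other tissues, AP1 and IND had no read in any library and AG had at most 5 counts. CA1, a carbonic anhydrase of green tissue, had at most 3 counts in mature seeds and 1 to 3 counts at stage II of Col-0 against 13 to 67 in the libraries labelled *ros1-4*, and 10 to 91 against 111 to 138 counts at stage IV. Its part in the differences between the genotypes was not tested. No hour of harvest is given in the sources used here, and several of these genes change over the day, so that the genotype and the hour of harvest cannot be told apart. Replicate 3 of Col-0 at stage II and the replicates of Col-0 at stage IV stood further from each other than most replicates did, with a chi-square per gene of 19.2 between replicates 1 and 3 at stage II against 5.97 between replicates 1 and 2.

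The 300 bases upstream of the annotated transcript start are shown for the 4 genes that held an evening element, since 3 of them (GRP7, GRP8 and FKF1) were the members that were higher at stage II in the libraries labelled *ros1-4* and the other, COL2, was lower. The sequences were read from the RefSeq assembly TAIR10.1 and run 5′ to 3′ on the strand of the gene. Capitals mark the evening element, AAAATATCT, or its reverse complement, AGATATTTT.
GRP7, chr2:9266558-9266857, minus strand: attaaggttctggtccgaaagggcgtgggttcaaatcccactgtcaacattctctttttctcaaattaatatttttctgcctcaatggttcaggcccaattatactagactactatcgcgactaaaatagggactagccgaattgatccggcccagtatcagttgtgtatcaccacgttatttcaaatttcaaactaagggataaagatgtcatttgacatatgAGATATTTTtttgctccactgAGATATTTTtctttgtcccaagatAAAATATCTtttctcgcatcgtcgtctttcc
GRP8, chr4:18275217-18275516, minus strand: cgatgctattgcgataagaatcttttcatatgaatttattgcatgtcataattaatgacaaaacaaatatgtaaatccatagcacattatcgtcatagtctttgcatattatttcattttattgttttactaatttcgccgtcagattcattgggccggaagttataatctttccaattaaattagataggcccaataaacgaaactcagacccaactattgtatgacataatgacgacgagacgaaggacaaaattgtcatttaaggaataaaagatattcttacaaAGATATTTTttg
FKF1, chr1:25508339-25508638, plus strand: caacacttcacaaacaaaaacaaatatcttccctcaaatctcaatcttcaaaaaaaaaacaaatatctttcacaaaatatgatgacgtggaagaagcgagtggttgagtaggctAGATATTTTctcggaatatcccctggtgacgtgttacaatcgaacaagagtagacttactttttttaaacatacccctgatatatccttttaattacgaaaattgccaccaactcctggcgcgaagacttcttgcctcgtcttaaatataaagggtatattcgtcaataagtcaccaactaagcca
COL2, chr3:489468-489767, minus strand: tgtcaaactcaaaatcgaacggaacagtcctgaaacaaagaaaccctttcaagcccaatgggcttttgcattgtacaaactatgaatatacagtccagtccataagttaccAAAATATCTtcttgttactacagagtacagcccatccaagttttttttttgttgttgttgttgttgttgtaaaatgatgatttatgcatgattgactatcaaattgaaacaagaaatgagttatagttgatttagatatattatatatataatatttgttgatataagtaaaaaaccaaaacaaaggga

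GRP7 held 3 evening elements within 76 bases of its start, which began 76, 55 and 31 bases upstream. GRP8 held 1 that began 12 bases upstream, FKF1 held 1 at 186 bases and another at 373 bases that lies beyond the stretch shown, and COL2 held 1 at 189 bases. Among all 27443 promoters of this length 2.79% held the evening element, against 4 of the 10 genes, which had been chosen as outputs of the clock. The CCA1-binding site (AAAAATCT, either strand) was found in 7.94% of all promoters and in that of CDF5, and the G-box (CACGTG, which reads the same on both strands) in 7.09% and in that of CDF2. In the 300 bases upstream of CDF1, CDF3, CO and COL1 none of the 3 motifs was found. A match is only a description of these letters, and the evening element stood upstream of genes that were higher and of one that was lower.

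**Figure D1:**
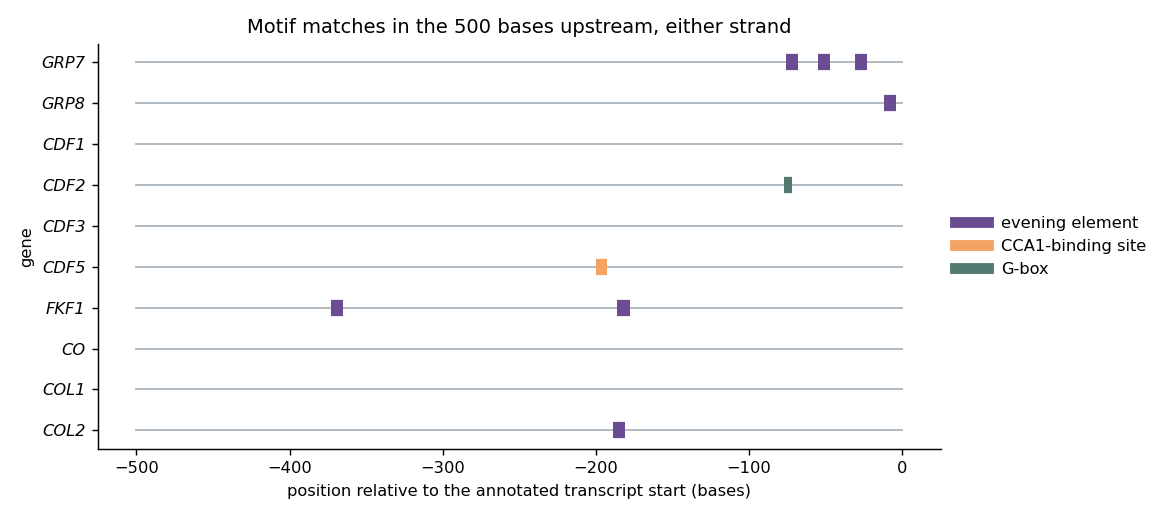
Matches to 3 clock-related motifs in the 500 bases upstream of each of the 10 genes, by distance in bases from the annotated transcript start, on either strand. GRP7 carries 3 evening elements within 76 bases of its start, FKF1 carries 2 and GRP8 and COL2 carry 1 each.

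The levels of the 10 genes spanned the range from the most abundant RNA-binding proteins to transcripts with hardly a read. Levels are compared between genes as CPM per kilobase of transcript. In mature Col-0 seeds the order was GRP8 (432 ± 33.9, SD, n = 3), GRP7 (144 ± 16.8), CDF2 (75.3 ± 2.18), FKF1 (15.1 ± 0.735) and CDF3 (12.3 ± 0.767), and each neighbour in this order was apart from the next in all replicates. CO and CDF1 had no read in any of these libraries, and COL1, COL2 and CDF5 had at most 3 counts. At stage II of Col-0, GRP7 (291 ± 27.4 CPM per kilobase) and GRP8 (276 ± 17.2) overlapped, as did CDF2 (10.3 ± 2.46) and COL1 (10.2 ± 1.12), whereas CDF3 was at 4.84 ± 0.653. In the libraries labelled *ros1-4* GRP7 was the highest of the 10 at stage II, with 779 ± 13.9 CPM per kilobase, and FKF1 was at rank 3 with 5.75 ± 0.469, against rank 7 in Col-0 with 0.932 ± 0.178. CO was among the 4 lowest in all 6 groups, and its mean did not exceed 0.401 CPM per kilobase.

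**Figure D2:**
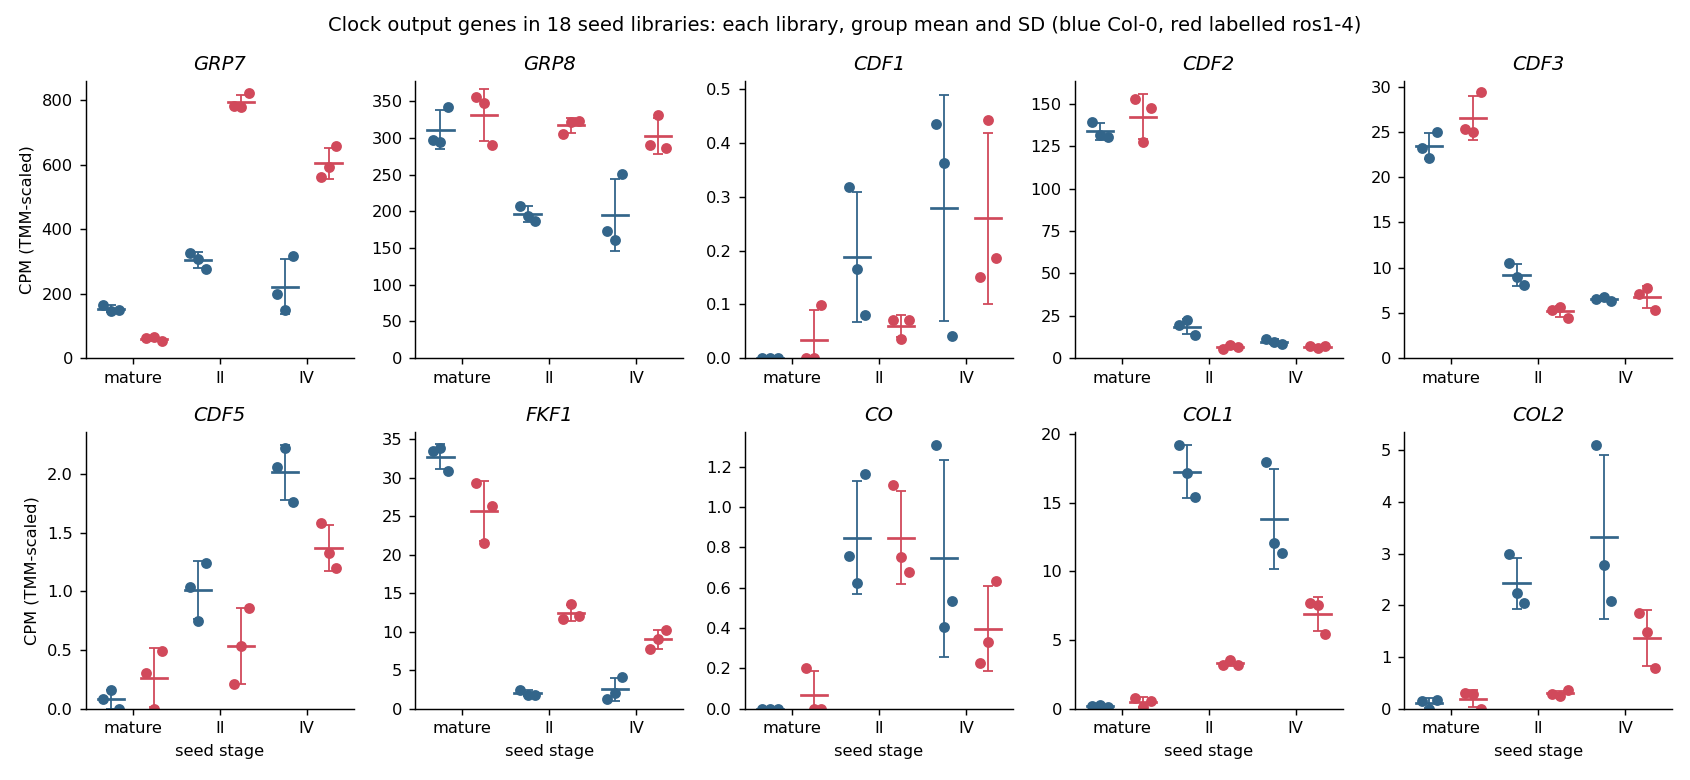
CPM of the 10 genes in each of the 18 libraries (points), by seed stage, with the mean of each group (horizontal line) and its SD (bar, not drawn below 0), in blue for Col-0 and in red for the libraries labelled *ros1-4*. GRP7 and FKF1 of the labelled mutant lie above Col-0 at stages II and IV, and COL1 and COL2 lie below it.

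At stage II, GRP7, GRP8 and FKF1 were higher in the libraries labelled *ros1-4*, and CDF2, CDF3, COL1 and COL2 were lower. CDF5 and CO did not pass the test and CDF1 was below the filter. Thus 7 of the 9 genes tested changed between the genotypes, 3 upward and 4 downward, where 22.6% of all 18521 genes tested passed the same threshold, an adjusted p-value under 0.05 in edgeR's quasi-likelihood test. Their median log2 fold change was -0.83, against -0.001 over all genes. The number of calls was 7 also under each of the 6 other settings and with any one library left out. Of all genes, 2117 were higher and 2065 lower, and with scaling by library size alone these were 2823 and 1408. The seed maturation markers, all 6 of them detected, had a summed share of 0.0216% to 0.0331% of the counts in Col-0 and of 0.154% to 0.231% in the libraries labelled *ros1-4*. CRA1, CRC, SESA1 and OLEO1 were higher in every library of the labelled mutant, with CRA1 (mean 54.1 against 759 CPM) and CRC (54.7 against 422 CPM) making up most of the sum, whereas EM1 (24.1 against 13.1 CPM) and EM6 (17.3 against 21.1 CPM) overlapped. The 3 markers of the germinating embryo summed to 795.9 to 1021 CPM in Col-0 and to 739.3 to 770.5 CPM in the labelled mutant. Of these, EXPA8 was lower without overlap (mean 133.9 against 69.06 CPM), whereas EXPA2 (531.8 against 462.4 CPM) and XTH5 (249.5 against 225.7 CPM) overlapped. The 3 markers of seedling photosynthesis took 0.358% to 0.404% and 0.474% to 0.483%. LHCB1.3 differed most (mean 251.4 against 886.5 CPM) and PSBO1 was also higher without overlap (164.3 against 205.8 CPM). RBCS1A, the most abundant of the 3, overlapped (2529 against 2460 CPM). The part of seed progress in the differences of the clock outputs was not tested.

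GRP7 had 327, 308 and 277 CPM in the 3 Col-0 libraries at stage II and 781, 779 and 821 CPM in those labelled *ros1-4*. The lowest library of the labelled mutant was thus above the highest of Col-0, and the fold change was 2.61 (log2 1.38 ± 0.07 SE, adjusted p = 3.1e-05). Its homologue GRP8 had 208, 194 and 187 CPM in Col-0 and 306, 322 and 323 CPM in the labelled mutant. The groups were again apart, at a smaller fold change of 1.61 (log2 0.69 ± 0.06, adjusted p = 2.3e-04). FKF1, the F-box photoreceptor that targets CDF proteins for degradation, rose from 2.47, 1.79 and 1.80 CPM in Col-0 to 11.7, 13.6 and 12.1 CPM. This was the largest increase of the 10 genes, at 6.14-fold (log2 2.62 ± 0.14, adjusted p = 5.1e-05).

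COL1 and COL2 showed the opposite pattern. COL1 had 19.2, 17.2 and 15.4 CPM in Col-0 and 3.19, 3.54 and 3.22 CPM in the libraries labelled *ros1-4*, a 5.21-fold lower level (log2 -2.38 ± 0.11, adjusted p = 3.1e-05). COL2 was at 75, 54 and 51 counts in Col-0 and at 8, 7 and 10 counts in the labelled mutant, 8.03-fold lower (log2 -3.01 ± 0.27, adjusted p = 3.4e-04). Both relatives of CO were therefore lower in every library of the labelled mutant than in any Col-0 library. CO itself, in contrast, had 19, 15 and 29 counts in Col-0 against 31, 21 and 19 counts in the labelled mutant, and its groups overlapped (log2 0.00 ± 0.32, adjusted p = 0.993). A p-value above the threshold does not show that CO was equal between the genotypes.

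Among the repressors, CDF2 had 19.8, 22.3 and 13.6 CPM in Col-0 and 5.66, 7.82 and 6.66 CPM in the libraries labelled *ros1-4*, which was 2.77-fold lower (log2 -1.47 ± 0.19, adjusted p = 0.00181). CDF3 had 10.5, 8.95 and 8.10 CPM against 5.38, 5.65 and 4.47 CPM, 1.78-fold lower (log2 -0.83 ± 0.13, adjusted p = 0.00428). The groups of both genes did not overlap. CDF5 had 26, 18 and 31 counts in Col-0 against 6, 15 and 24 counts in the labelled mutant, and with overlapping groups it did not pass (log2 -0.91 ± 0.44, adjusted p = 0.173). CDF1 was below the filter on low counts, with 8, 4 and 2 counts in Col-0 against 2, 1 and 2 counts in the labelled mutant, and the ratio of the summed counts after scaling was 0.316 with a 95% counting interval of 0.0890 to 0.928. This interval covers counting error only. After scaling, Col-0 replicate 3 with its 2 counts was at 0.0802 CPM, just above the highest library of the labelled mutant at 0.0717 CPM.

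**Figure D3:**
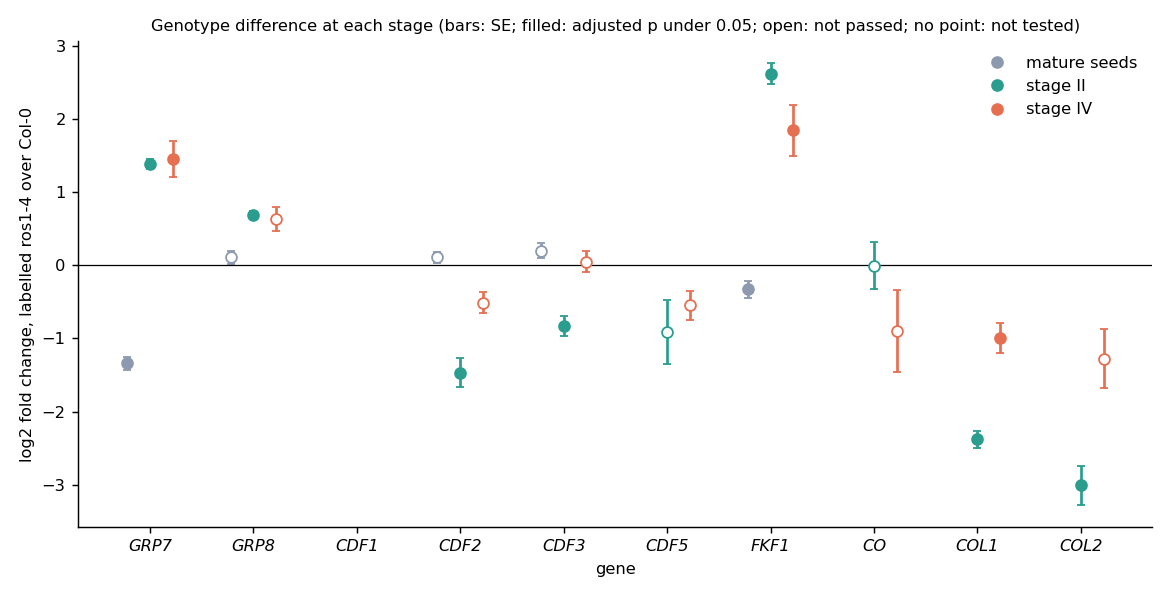
Log2 fold change of the libraries labelled *ros1-4* over Col-0 for each gene (points, with SE as bars) in the 3 kinds of seed, filled where the adjusted p-value was under 0.05. GRP7 lies at -1.34 in mature seeds and at 1.38 and 1.46 at the germination stages, FKF1 lies highest at stage II with 2.62 and COL2 lowest with -3.01.

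In mature dried seeds GRP7 went the other way, and FKF1 did so with a call that depended on the setting. GRP7 had 165, 146 and 148 CPM in Col-0 and 61.5, 64.6 and 52.4 CPM in the libraries labelled *ros1-4*, so that it was 2.53-fold lower (log2 -1.34 ± 0.09, adjusted p = 5.4e-08). FKF1 had 33.5, 33.8 and 30.9 CPM against 29.2, 21.5 and 26.3 CPM, 1.26-fold lower (log2 -0.33 ± 0.11, adjusted p = 0.0389). These were 2 of the 5 genes tested, where 26.8% of all 15441 genes tested passed. The call of FKF1 was lost in DESeq2 (adjusted p = 0.0832), with all libraries in one fit (0.255) and without any one of the 3 Col-0 replicates (0.0571 to 0.130) or replicate 2 or 3 of the labelled mutant (0.149 and 0.0593), whereas that of GRP7 was kept in all of these.

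GRP8, CDF2 and CDF3 did not pass in mature seeds. GRP8 had 297, 295 and 342 CPM in Col-0 and 356, 348 and 291 CPM in the labelled mutant (log2 0.11 ± 0.09, adjusted p = 0.376), and without replicate 3 of the labelled mutant it passed as higher (log2 0.22, adjusted p = 0.0424). CDF2, the most abundant of the repressors in dry seeds, had 140, 132 and 131 CPM against 153, 127 and 147 CPM, and CDF3 had 23.2, 22.1 and 25.0 CPM against 25.4, 25.0 and 29.4 CPM. All 3 genes had overlapping groups, and their log2 fold changes turned negative (-0.23, -0.23 and -0.13) with scaling by library size alone, which moved the median of all genes from -0.007 to -0.343. Under that scaling 466 genes were higher and 7528 lower, instead of 2135 and 2006. CO and CDF1 had at most 2 counts, COL2 at most 3, CDF5 at most 5 and COL1 at most 8 in any mature library, and no test was made of them.

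At stage IV GRP7 and FKF1 were again higher and COL1 lower in the libraries labelled *ros1-4*. GRP7 had 198, 149 and 315 CPM in Col-0 and 562, 594 and 657 CPM in the libraries labelled *ros1-4*, and the groups did not overlap (2.74-fold, log2 1.46 ± 0.24, adjusted p = 0.0147). FKF1 had 1.31, 2.10 and 4.17 CPM against 7.77, 9.12 and 10.2 CPM (3.59-fold, log2 1.84 ± 0.35, adjusted p = 0.0204). COL1 had 454, 298 and 278 counts against 204, 205 and 146 counts, 1.99-fold lower (log2 -0.99 ± 0.20, adjusted p = 0.0262). These 3 of 9 genes tested passed, where 8.22% of all 19020 genes tested did. The seed maturation markers took 0.0134% to 0.0590% of the counts in Col-0 and 0.0270% to 0.0823% in the labelled mutant, so that these shares overlapped at this stage.

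For GRP8, CDF2, COL2 and CDF5 the groups at stage IV were apart but the test was not passed. The share of all genes with groups apart is not given here, so that this does not stand in for the test. GRP8 had 174, 161 and 251 CPM in Col-0 and 291, 331 and 286 CPM in the labelled mutant (log2 0.64 ± 0.16, adjusted p = 0.0524). CDF2 had 11.5, 9.73 and 8.22 CPM against 7.02, 6.13 and 7.43 CPM (log2 -0.51 ± 0.14, adjusted p = 0.0655), and COL2 had 129, 69 and 51 counts against 49, 40 and 21 counts (log2 -1.27 ± 0.40, adjusted p = 0.0875). GRP8, CDF2 and COL2 passed in DESeq2 and with all 18 libraries in one fit, so that 6 members were called there. Calls over all genes also rose with all 18 libraries in one fit, and their number in DESeq2 is not given here. The rise is thus not particular to these members. CDF3 had 6.49, 6.78 and 6.34 CPM against 7.09, 7.71 and 5.37 CPM (log2 0.05 ± 0.14, adjusted p = 0.869), which is a value on the other side of that at stage II.

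CDF5 at stage IV had 52, 55 and 43 counts in Col-0 against 42, 36 and 32 counts in the labelled mutant, without overlap (log2 -0.55 ± 0.20, adjusted p = 0.133). CO had 33, 10 and 13 counts against 6, 9 and 17 counts (log2 -0.90 ± 0.56, adjusted p = 0.344), and CDF1 had 11, 9 and 1 counts against 4, 12 and 5 counts. The calls at stage IV depended on single libraries. Between 0 and 5 members were called when 1 library was left out, with 5 without Col-0 replicate 3 and 1 without Col-0 replicate 2. There were 0 calls without replicate 2 or replicate 3 of the labelled mutant. In either of these cases 6 members had an unadjusted p-value under 0.05 in edgeR. The share of all genes at that unadjusted level is not given here, so that this count says little about the members. Without these last 2 libraries in turn, GRP7 kept its direction (log2 1.47 and 1.38, adjusted p = 0.0605 and 0.0509), as did FKF1 (1.84 and 1.74, 0.0824 and 0.0661) and COL1 (-1.07 and -0.85, 0.0853 and 0.0773). Without Col-0 replicate 2, FKF1 (0.0786) and COL1 (0.0587) were lost, and without replicate 1 of the labelled mutant COL1 was lost (0.0599).

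From mature Col-0 seeds to stage II all 9 genes tested changed, where 88.3% of all 18388 genes tested did, so that the count itself says little about these genes. Their sizes differed. FKF1 fell from 30.9 to 33.8 CPM in mature seeds to 1.79 to 2.47 CPM at stage II, a 16.1-fold decrease (log2 -4.01 ± 0.14, adjusted p = 3.9e-09). CDF2 fell 7.22-fold and CDF3 2.55-fold, whereas GRP7 rose 1.99-fold. GRP8 fell 1.59-fold (log2 -0.67 ± 0.08, adjusted p = 3.7e-05), which turned to an increase (log2 0.30, adjusted p = 0.00651) when library size alone set the scale. COL1 appeared with germination, from 3, 3 and 2 counts to 483, 413 and 384 counts, a ratio of 80.7 after scaling (95% counting interval 40.8 to 187). The ratio of COL2 was 22.7 (8.71 to 84.2) and that of CDF5 12.6 (4.15 to 62.5), where the fitted log2 change of 3.55 moved to 4.45 without replicate 2 of the mature seeds, and CO, with no read in mature seeds, was at least 3.52-fold higher at stage II against a floor of 3 counts per library.

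In the libraries labelled *ros1-4*, 6 of the 7 genes tested changed from mature seeds to stage II, where 89.7% of all 18822 genes tested did. GRP7 rose 13.2-fold, from between 52.4 and 64.6 CPM to between 779 and 821 CPM (log2 3.72 ± 0.09, adjusted p = 4.9e-14). CDF2 fell 21.4-fold, CDF3 fell 5.18-fold and FKF1 fell 2.08-fold (log2 -1.05 ± 0.12, adjusted p = 7.8e-07), with the last turning to an increase (log2 0.31, adjusted p = 0.0178) when scaled by library size alone. GRP8 did not pass (log2 -0.08 ± 0.09, adjusted p = 0.391), although it was higher by 1.28 on the log2 scale under that scaling (adjusted p = 1.8e-09) and passed as lower without replicate 3 of the mature seeds (log2 -0.16, adjusted p = 0.0211). COL1 rose from 8, 1 and 6 counts to 89, 99 and 90 counts (6.58-fold, adjusted p = 8.9e-06), and CO from 2, 0 and 0 counts to 31, 21 and 19 counts, a ratio of 12.9 (95% counting interval 3.44 to 108). Both counts of the mature seeds came from replicate 1, without which the fitted log2 change of CO moved from 3.55 to 7.15. COL2 stayed near its floor, with 3, 3 and 0 counts in mature seeds and 8, 7 and 10 counts at stage II, a ratio of 1.51 (0.605 to 4.50). Scaling by library size alone moved the median log2 change of all genes from 0.171 to 1.141 in Col-0 and from 0.328 to 1.683 in the labelled mutant. The split of calls moved with it, from 8693 higher and 7535 lower to 12157 and 4316 in Col-0, and from 9475 and 7400 to 13900 and 3516 in the labelled mutant.

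The difference between these 2 courses was tested as an interaction of genotype and stage, and 7 of the 9 genes passed, where 19.7% of all 19252 genes tested did. GRP7 rose by 2.71 log2 units more in the libraries labelled *ros1-4* than in Col-0 (± 0.14 SE, adjusted p = 1.9e-08), and FKF1 fell by 2.93 log2 units less (± 0.19, adjusted p = 2.3e-07). Fitted differences of GRP8 (0.57, adjusted p = 0.00695), CDF2 (-1.59, adjusted p = 1.1e-04) and CDF3 (-1.05, adjusted p = 4.8e-04) also passed. COL1 (-3.59) and COL2 (-3.88) passed with adjusted p-values of 0.00129 and 0.0221, but their fitted sizes rest on mature libraries with at most 8 counts, and COL2 was lost without replicate 1 or 2 of the mature seeds labelled *ros1-4* (0.116 and 0.107) and with all 18 libraries in one fit (0.0504). The split over all genes was 2005 higher and 1779 lower, and 7450 and 464 when scaled by library size alone.

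Between stages II and IV most members moved less in Col-0 than from mature seeds to stage II. In the libraries labelled *ros1-4* COL2 moved more (4.40-fold against a ratio of 1.51). CDF5 and CDF1 also moved more there, from few counts. CDF5 had means of 0.266, 0.537 and 1.37 CPM in mature seeds and at stages II and IV. CDF1 had means of 0.0329, 0.0597 and 0.260 CPM. Its ratio of summed counts from stage II to stage IV was 4.38 (95% counting interval 1.61 to 14.9). In Col-0, 3 of 9 genes tested changed, where 38.7% of all 18668 genes tested did: CDF2 fell 1.89-fold (log2 -0.92 ± 0.20, adjusted p = 0.0104), CDF3 fell 1.41-fold (log2 -0.50 ± 0.12, adjusted p = 0.0164) and CDF5 rose 1.98-fold (log2 0.99 ± 0.24, adjusted p = 0.0170). The call of CDF3 was lost without Col-0 replicate 1 of stage II or replicate 3 of stage IV (adjusted p = 0.0512 and 0.0532), and that of CDF5 without replicate 1 or 2 of stage II or replicate 2 of stage IV (0.0545 to 0.0630). GRP7 in Col-0 passed as lower at stage IV when replicate 3 of stage IV was left out (log2 -0.81, adjusted p = 0.0120) and with all 18 libraries in one fit (log2 -0.46, adjusted p = 0.0410), instead of -0.46 with an adjusted p-value of 0.174, and COL1 did so without replicate 1 (log2 -0.57, adjusted p = 0.0130) instead of -0.33 with 0.188.

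In the libraries labelled *ros1-4*, 6 of 9 genes changed between stages II and IV, where 39.9% of all 18951 genes tested did. COL2 rose from 8, 7 and 10 counts to 49, 40 and 21 counts (4.40-fold, log2 2.14 ± 0.38, adjusted p = 0.00199), COL1 rose 2.02-fold (log2 1.01 ± 0.15, adjusted p = 7.8e-04) and CDF5 rose 2.46-fold (adjusted p = 0.0200). GRP7 (log2 -0.44 ± 0.06, adjusted p = 7.5e-04) and FKF1 (log2 -0.51 ± 0.11, adjusted p = 0.00583) fell, as did CO (log2 -1.12 ± 0.39, adjusted p = 0.0427). With all 18 libraries in one fit GRP7 (adjusted p = 0.104) and FKF1 (0.102) were lost. CO was lost there (0.126), in DESeq2 (0.0926) and without any of 5 of the 6 libraries (0.0635 to 0.163), the exception being replicate 3 of stage IV, and CDF5 was lost without replicate 1 or 2 of stage II or replicate 1 of stage IV (0.0522 to 0.0644).

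The interaction of genotype with the step from stage II to stage IV passed for 2 of 9 genes, where 3.46% of all 19296 genes tested did. These were COL1 (1.36 ± 0.26, adjusted p = 0.0200) and CDF3 (0.85 ± 0.20, adjusted p = 0.0434), both with a more positive change in the libraries labelled *ros1-4*. The call of COL1 was lost in 7 of the 12 fits that left out 1 library (adjusted p = 0.0530 to 0.0633) and that of CDF3 in 9 of them (0.0760 to 0.109). The call of CDF3 was also lost with scaling by library size alone (0.0511). For FKF1 (-0.80 ± 0.41, adjusted p = 0.288) and GRP7 (0.05 ± 0.28, adjusted p = 0.948) no difference between the genotypes was detected in this step.

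The oscillator genes gave the setting in which these outputs were measured. Of 9 morning clock genes, 7 were lower at stage II in the libraries labelled *ros1-4* and the other 2 did not pass, with LHY (log2 -6.32 ± 0.17, adjusted p = 4.9e-06), CCA1 (-5.46 ± 0.25, adjusted p = 3.1e-05) and PRR9 (-3.62 ± 0.33, adjusted p = 3.8e-04) moving most. Of 7 evening clock genes, 5 were higher and 1 lower, led by PRR5 (log2 3.74 ± 0.32, adjusted p = 3.1e-04), ELF4 (2.45 ± 0.30, adjusted p = 0.00134) and LUX (1.48 ± 0.19, adjusted p = 0.00145). The list medians were -2.48 for the morning and 1.16 for the evening genes, against -0.001 over all genes, of which 22.6% were called. At stage IV the counts were 6 lower and 1 higher of the morning list and 4 higher and 1 lower of the evening list. Among all genes 8.22% were called there. In mature seeds they were 2 lower and 1 higher of 9, and 1 of each of 7, numbers near the 26.8% called among all genes there, and PRR5 was lower (log2 -1.21 ± 0.10, adjusted p = 6.3e-07), the same direction as GRP7.

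**Figure D4:**
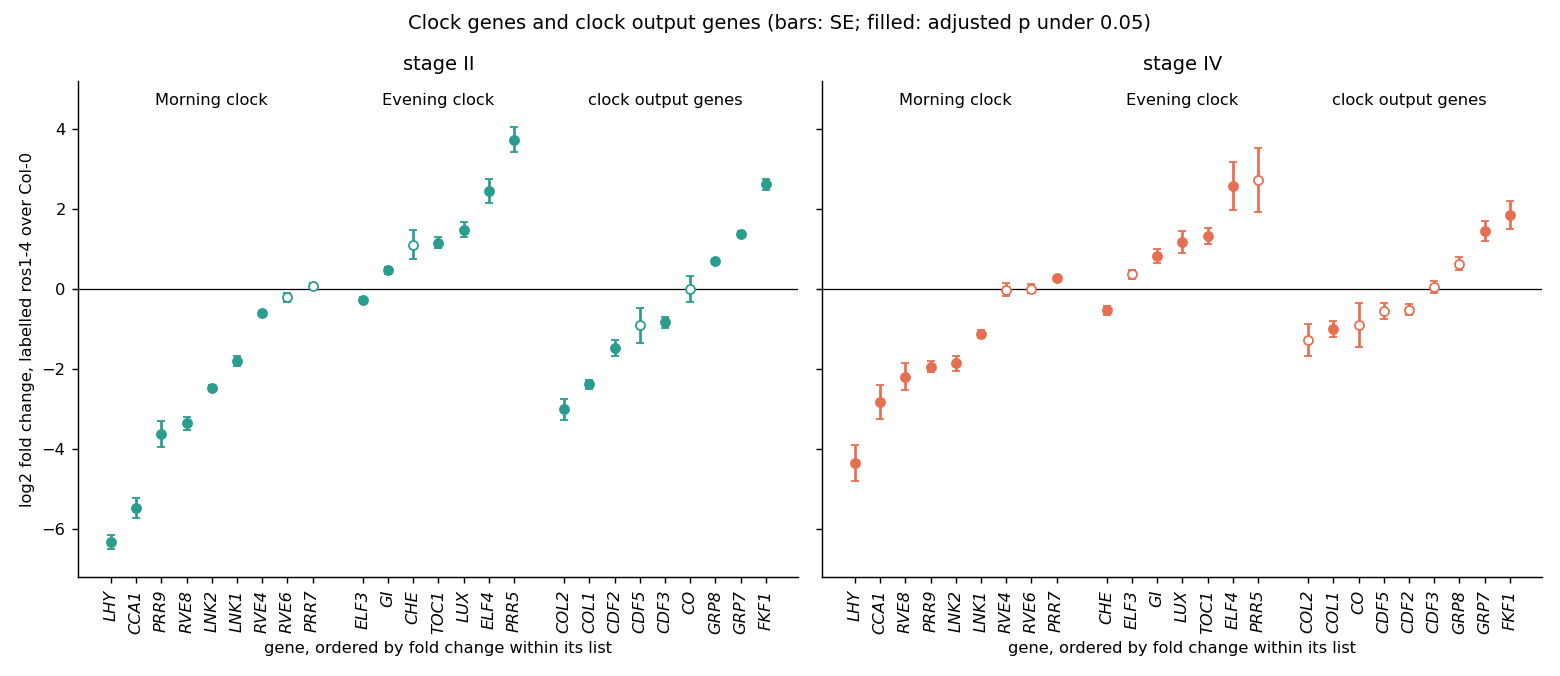
Log2 fold change of the libraries labelled *ros1-4* over Col-0 (points, SE as bars, filled where the adjusted p-value was under 0.05) at stages II and IV for 9 morning clock genes, 7 evening clock genes and the 9 tested clock outputs. LHY lies lowest in both panels, and FKF1, GRP7 and GRP8 lie on the same side as most evening genes.

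LHY and PRR5, chosen here after their values were seen, varied among the Col-0 libraries at stage IV. LHY had 209, 109 and 57.5 CPM in the 3 Col-0 libraries, and PRR5 had 0.514, 0.525 and 9.36 CPM. Replicate 3, the lowest in LHY and the highest in PRR5, was also the Col-0 library with the highest GRP7 (315 CPM), GRP8 (251 CPM) and FKF1 (4.17 CPM) and the lowest COL1 (11.4 CPM) and COL2 (2.08 CPM) of that stage. In the libraries labelled *ros1-4* LHY had 6.45, 6.98 and 4.93 CPM at stage IV and 3.66, 2.82 and 2.08 CPM at stage II, where Col-0 had 245, 232 and 208 CPM. Other clock genes were divided at stage IV. Replicate 3 of Col-0 was also the nearest to the labelled mutant for CCA1, RVE8, LNK1, LNK2, TOC1, ELF4, LUX and CHE. CCA1 had 42.8, 20.1 and 14.0 CPM and LUX had 11.9, 15.7 and 28.2 CPM in the 3 Col-0 libraries. For PRR9, PRR7 and ELF3 replicate 1 was the nearest, at 10.3, 40.2 and 65.4 CPM. Of these, PRR9 (10.3 to 11.4 CPM) and PRR7 (38.4 to 40.2 CPM) varied little within Col-0. RVE4 and RVE6 overlapped between the genotypes. These are values side by side, and the part of the oscillator in the differences of the outputs was not tested.

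**Figure D5:**
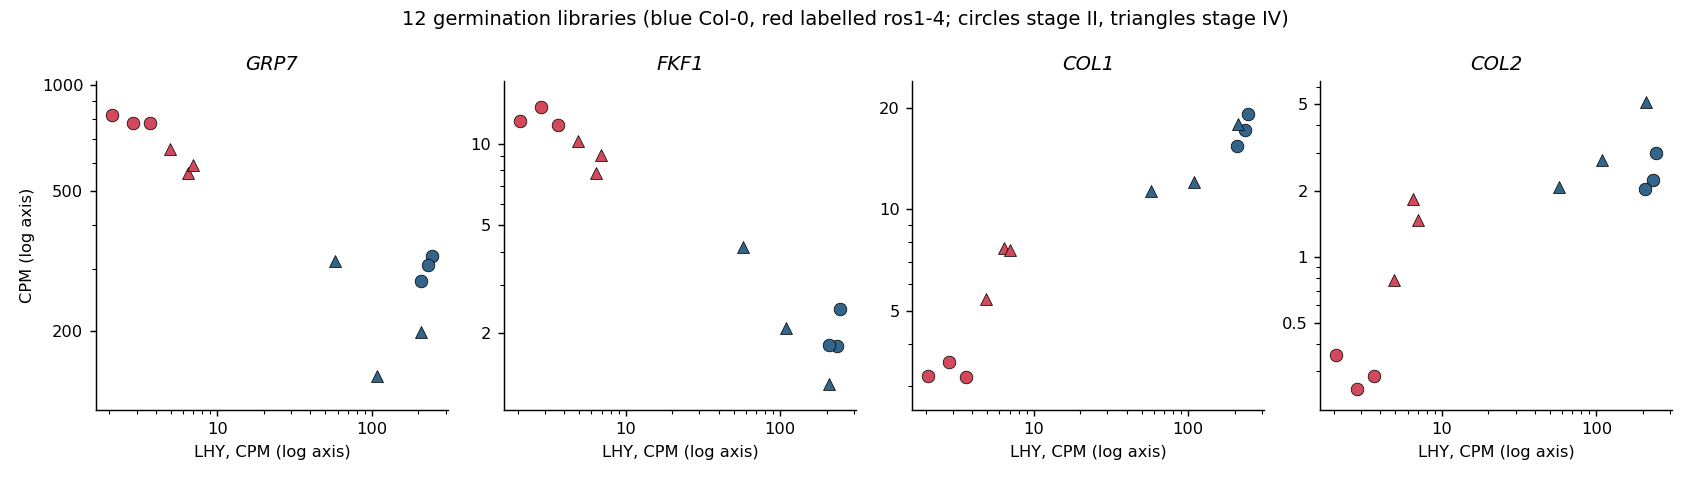
CPM of GRP7, FKF1, COL1 and COL2 against CPM of LHY in the 12 germination libraries, both on log axes, in blue for Col-0 and in red for the libraries labelled *ros1-4*, with circles for stage II and triangles for stage IV. The 6 libraries of the labelled mutant lie at or below 6.98 CPM of LHY and the 6 of Col-0 at or above 57.5, and the Col-0 library at 57.5 CPM of LHY has the highest FKF1 of Col-0.

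Among the other genes of the photoperiod pathway, FT had no read in any of the 18 libraries, which allows up to 3 counts in each, and its relative TSF had 35 counts summed over the Col-0 libraries of stage II and 81 over those labelled *ros1-4* (log2 1.02 ± 0.27, adjusted p = 0.0296). Among 17 tested partners and regulators of CO at stage II, 1 was higher and 6 were lower, against 22.6% called among all genes, with SPA3 (log2 -1.73 ± 0.16, adjusted p = 3.5e-04) and SPA4 (-0.85 ± 0.16, adjusted p = 0.00728), which act with COP1 in the degradation of CO protein, moving most besides TSF. The list median was -0.14, against -0.001 over all genes. At stage IV SPA3 was the only one of the 17 that passed (log2 -0.60 ± 0.12, adjusted p = 0.0239), against 8.22% called among all genes.

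Within the families the members did not move as one. Among all genes tested, 22.6% were called at stage II, 8.22% at stage IV and 26.8% in mature seeds. Of the 10 other COL genes tested, 4 were higher and 3 lower at stage II, with COL9 (log2 1.93 ± 0.21, adjusted p = 8.1e-04) and COL10 (1.60 ± 0.12, adjusted p = 1.6e-04) higher, on the opposite side from COL1 and COL2. COL9 (2.15 ± 0.37, adjusted p = 0.0154) and COL10 (1.22 ± 0.27, adjusted p = 0.0330) were higher at stage IV as well. Of 5 other Dof factors and relatives of FKF1, GI was the one called, at 0.47 ± 0.09 (adjusted p = 0.00915) at stage II and 0.83 ± 0.17 (adjusted p = 0.0255) at stage IV. At stage II this is near the share over all genes. GI also counts among the evening clock genes. Among 8 other glycine-rich RNA-binding proteins 3 were higher and 1 lower at stage II, the largest being GR-RBP4 (0.60 ± 0.08, adjusted p = 0.00150), a change below that of GRP8. In mature seeds GR-RBP4 was lower (-0.79 ± 0.10, adjusted p = 2.3e-05), so that its sign at both stages was that of GRP7.

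The genes whose pattern was most like that of each member over the 18 libraries were picked by Pearson's r of log2 CPM among genes whose mean was 5 CPM or more. FKF1 was followed by COR27 (r = 0.987), LUX (0.985) and TOC1 (0.974), and GRP8 by ABF1 (0.955), NIP2 (0.950) and PRR5 (0.933). GRP7 was nearest to AT3G63210 (0.977). CDF2 had the same nearest genes at r = 0.993, ASG1, BTI1 and SOUL-1, and CDF3 shared ASG1 (0.991) and BTI1 (0.986) with it after ZF2 (0.991). COL1 was nearest to AT5G04830 (0.986) and COL2 to GR1 (0.968). These values describe libraries that fall into 6 groups and share their stage, so that no p-value is given. Over the same libraries GRP7 and GRP8 had r = -0.007.

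The balance between the paralogues GRP7 and GRP8 differed between the groups, and the ranges of no 2 of the 6 groups overlapped. Per kilobase, GRP7 stood at 0.284 to 0.393 of GRP8 in mature Col-0 seeds and at 0.117 to 0.131 in those labelled *ros1-4*. At stage II the ratio was 1.01 to 1.08 in Col-0 and 1.66 to 1.79 in the labelled mutant, and at stage IV it was 0.641 to 0.877 and 1.24 to 1.57. No library of one genotype lay within the range of the other at the same stage. The 2 genes share no stretch of 50 bases, the length of a read, in their transcripts, nor does any other pair of the 10 genes.

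The split of reads over transcripts of one gene is an estimate from reads of 50 bases. GRP7 has 2 annotated transcripts, and the second, in which an additional intron is removed, took 20.1% ± 10.7 (SD, n = 3) of the counts in mature Col-0 seeds, and later 23.4% ± 3.50 (stage II) and 28.5% ± 7.67 (stage IV). In the libraries labelled *ros1-4* it took 19.7% ± 6.41, 29.8% ± 3.99 and 33.2% ± 7.83. These shares overlapped between the genotypes at every stage. Of the 4 transcripts of GRP8 the third was the largest at germination, with 48.8% ± 3.25 in Col-0 and 53.3% ± 1.52 in the labelled mutant at stage II, against 41.6% ± 3.31 and 38.5% ± 3.60 in mature seeds. The third transcript of CDF2 took 76.5% to 85.6% of the counts in the means of the 6 groups.

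The members lie at scattered places in TAIR10.1: GRP7 at chr2:9265084-9266557, GRP8 at chr4:18273829-18275216, CDF1 at chr5:25069093-25071111, CDF2 at chr5:15878698-15881537 and CDF3 at chr3:17503883-17506124. No other annotated gene overlaps these 5. CO (chr5:5170162-5173085) and COL1 (chr5:5176091-5177897) are neighbours on the minus strand, 3005 bases apart. At stage II COL1 was called between the genotypes and CO was not, and the difference between them was not tested. The other 5 members overlap genes on the opposite strand, and whether the counting used strand is not given in the sources used here, so that their values are uncertain to that extent. CDF5 (chr1:26161528-26163715) shares 1241 bases with the long noncoding gene AT1G69572, CO shares 1972 bases with AT5G15843 and AT5G15845 together, COL1 shares all of its 1807 bases with AT5G15845, and FKF1 (chr1:25508639-25510907) shares 21 bases with AT1G68060. COL2 (chr3:487069-489467) shares 1459 bases with AT3G02370 and AT3G02390. Of these partners, AT5G15843 had at most 4 counts, AT3G02390 had at most 8 counts and AT3G02370 had 36 to 83 counts in all 18 libraries. AT3G02370 did not show the drop of COL2 from 51 or more to 10 or fewer counts at stage II. AT1G68060, the partner of FKF1, was more abundant, with 66 to 113 counts in mature seeds. At stage II it had 994 to 1231 counts in Col-0 and 1409 to 1425 in the libraries labelled *ros1-4*, the same direction as FKF1. Its part in the counts of FKF1 was not tested. AT1G69572 and AT5G15845 were not among the 27587 genes of the table, so that no counts of them could be compared.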

How the data were processed

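RNA from 18 libraries, 3 per genotype and seed stage, had been sequenced as single-end reads of 50 bases. The authors estimated reads per Araport11 transcript with Salmon, and the deposited estimated counts are not scaled for depth or length. The 48268 transcripts were added up within each of 27587 genes, and sums were rounded. 0 columns of samples were left out and 0 rows lacked a gene name.

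Genes kept by filterByExpr were tested in R 4.3.3 with edgeR 4.0.16 (TMM scaling, glmQLFit and glmQLFTest, two-sided) on the libraries of each comparison. P-values were adjusted by the Benjamini-Hochberg method over all genes tested, with a threshold of 0.05. The SE is the log2 fold change over the square root of its F statistic. CPM use TMM factors over the 18 libraries, and CPM per kilobase divide each transcript by its length. TMM factors in mature seeds were 0.646 to 0.671 in Col-0 and 0.511 to 0.546 in the libraries labelled *ros1-4*, where a few storage genes take a large share of the counts. The tests were tested on simulated data first. A library at 0 was set to a floor of 3 counts for a lower bound. Counting intervals (95%) cover counting error only.

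The genes named are the 10 members, ROS1, at most 3 called genes with the largest change per list and comparison, and the 3 genes most correlated with a member. Their behaviour in each library is given besides for some clock genes and TSF, chosen after their values were seen. The members and lists were chosen with earlier results of these data known. Promoters and coordinates were read from the RefSeq assembly TAIR10.1, in which 27392 genes were matched and the 17 member transcripts had the deposited lengths. Alternatives were DESeq2 1.42.0 and its size factors, scaling by library size alone, no filter, a single fit of all libraries, a block for the replicate number, and leaving out each library. The replicates are separate seed samples, and p-values set the difference between groups against the spread between these samples.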

Additional observations from a re-analysis of the deposited data

Results flagged for a closer look

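By edgeR's test of the interaction, the change from mature seeds to stage II differed between the genotypes in 7 of the 9 genes tested. Over all 19252 genes tested, 19.7% passed. Differences are on the log2 scale (labelled *ros1-4* minus Col-0), with p-values adjusted over all genes tested. The difference was 2.71 ± 0.14 (SE) for GRP7, 2.93 ± 0.19 for FKF1 and 0.57 ± 0.13 for GRP8. It was -1.59 ± 0.21 for CDF2 and -1.05 ± 0.16 for CDF3. For COL1 it was -3.59 ± 0.64 and for COL2 -3.88 ± 1.10, both from few counts in mature seeds. The call of COL2 was lost in some fits with 1 library left out (adjusted p up to 0.116). From stage II to stage IV the change differed in COL1 by 1.36 ± 0.26 and in CDF3 by 0.85 ± 0.20, where 3.46% of all 19296 genes tested passed. Both calls were lost in most fits with 1 library left out (adjusted p up to 0.0633 and 0.109).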

How the results depend on the processing

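In the fold changes of the 10 genes, 418 of 450 values under other settings and 482 of 558 with 1 library left out kept their direction and their side of the threshold. Precision was limited by the 3 replicates per group and, for CO, CDF1, CDF5 and COL2, by few counts. The cause of these movements was not tested.

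Of the 10 genes, 2 were called in mature seeds, against 4 with scaling by library size alone, 1 in DESeq2, 1 with all 18 libraries in one fit and 1 to 2 with 1 library left out. At stage IV 3 were called, against 6 in DESeq2, 6 with all 18 libraries in one fit and 0 to 5 with 1 library left out. With 1 library left out, 1 to 4 were called between stages II and IV in Col-0 and 4 to 7 in the libraries labelled *ros1-4*. In the interaction from mature seeds to stage II these were 6 to 7. In that from stage II to IV, 2 were called, 1 with library size alone and 0 to 4 with 1 library left out. Each fit without a call had 4 members at an unadjusted p-value under 0.05 in edgeR. The share of all genes at that unadjusted level is not given here.

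Over all genes, 4141 were called in mature seeds, 7994 when only library size was used, and 2961 to 4353 with 1 library left out. At stage II 4182 were called, and 2150 to 6934 with 1 library left out, the highest without replicate 3 of Col-0. At stage IV 1564 were called, 2652 with all libraries in one fit and 291 to 1646 with 1 left out. Between stages II and IV, leaving out 1 gave 4448 to 7747 in Col-0 and 5100 to 8792 in the libraries labelled *ros1-4*. The interactions gave 3784 (7914 with library size alone, 2943 to 4618 with 1 left out) and 668 (1309 in DESeq2, 109 to 2616 with 1 left out).

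Directions turned with library size alone for GRP8 (-0.23), CDF2 (-0.23) and CDF3 (-0.13) between the genotypes in mature seeds, for CO at stage II (0.0565), for GRP8 from mature seeds to stage II in Col-0 (0.30) and in the libraries labelled *ros1-4* (1.28), and for FKF1 in the latter (0.31). CDF2 between stages II and IV in the labelled mutant turned with all 18 libraries in one fit (0.0301). With 1 library left out, the log2 fold change spanned -0.25 to 0.29 for CO at stage II and -0.0655 to 0.18 for CDF3 at stage IV. In Col-0 between stages II and IV it spanned -0.24 to 0.12 for GRP8, -0.25 to 0.63 for FKF1, -0.86 to 0.12 for CO and -0.0014 to 0.70 for COL2, and in the labelled mutant -0.12 to 0.11 for CDF2. In the second interaction it spanned -0.20 to 0.38 for GRP7, -0.23 to 0.13 for GRP8 and -0.0603 to 0.82 for CDF5.

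The replicate numbers did not pair the samples: deviations of same-numbered samples correlated at -0.13 to 0.142, and not every sample correlated best with its own number. With the replicate number as a block, 701 genes were called at stage IV and 289 in the second interaction, CO at stage II turned to 0.0045, COL2 at stage IV (adjusted p = 0.0413) and CDF3 between stages II and IV in the labelled mutant (0.0413) passed, and CO in the latter was lost (0.0640).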
